A study of Mus musculus with 36 samples.

Results

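RNA on oligodendrocyte ribosomes was compared with the RNA left behind in the same forebrain, across all 36 arrays of the series. Each of 18 mice gave 1 bound array and 1 unbound array with the same state and replicate number. The bound minus unbound difference was taken within each mouse and averaged over 3 behavioural states with equal weight. Every gene on the array entered by 1 rule, the probe set with the highest mean over all arrays, which gave 18193 genes. Of these, 13924 were bright enough in at least 1 fraction to be tested.

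All mice were heterozygous Cnp–eGFP-L10a animals on the C57BL/6 strain. They carry the ribosomal protein L10a fused to a green fluorescent protein under control of Cnp, so the tag marks ribosomes in Cnp-expressing cells, which are oligodendrocytes and their maturing precursors rather than the whole glial population. The bound fraction is the RNA pulled down with the tagged ribosomes. The unbound fraction is the supernatant of that pull-down, which holds RNA of neurons and other glia and whatever oligodendrocyte RNA was not captured. There were 6 mice per state. The sleep group had slept for 75% or more of a 6 to 7 h window before collection at 3 to 5 pm. The waking group had been spontaneously awake for 70% or more of such a window before collection at 3 to 5 am. Sleep-deprived mice were kept awake for 4 h of the light period with new objects. The same mice serve both fractions, so no wild-type or untagged pull-down enters the comparison, and the labels name different RNA purification kits for the fractions. That kit, the pull-down itself and the cell source cannot be told apart here. Fewer cells of a type and less RNA per cell cannot be told apart in either fraction.

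Oligodendrocytes wrap axons in myelin, a stacked membrane rich in cholesterol, galactolipids and very-long-chain fatty acids. They arise from precursors marked by Pdgfra, pass through a short newly formed stage, and mature under the transcription factors Olig2, Sox10 and Myrf. Translating ribosome affinity purification reads their messages while those are on ribosomes, without dissociating the cells.

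The driver of the tag and a marker of mature myelin differ in the sequence just upstream of their starts, shown here because Cnp sets which ribosomes are captured and Mog is the cell type check. Both come from RefSeq on GRCm38.p6, and each run is the 250 bases before the gene start, 5′ to 3′ on the gene's strand. Cnp is read from chr11:100574689-100574938 on the plus strand and Mog from chr17:37023399-37023648 on the minus strand. Capitals mark ACAAAG, a core letter string bound by SOX proteins, searched on both strands together with ACAATG.
Cnp: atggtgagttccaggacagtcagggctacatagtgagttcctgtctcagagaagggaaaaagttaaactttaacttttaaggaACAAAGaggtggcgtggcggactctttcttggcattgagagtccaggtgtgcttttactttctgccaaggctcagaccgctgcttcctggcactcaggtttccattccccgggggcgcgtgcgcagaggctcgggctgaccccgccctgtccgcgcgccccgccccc
Mog: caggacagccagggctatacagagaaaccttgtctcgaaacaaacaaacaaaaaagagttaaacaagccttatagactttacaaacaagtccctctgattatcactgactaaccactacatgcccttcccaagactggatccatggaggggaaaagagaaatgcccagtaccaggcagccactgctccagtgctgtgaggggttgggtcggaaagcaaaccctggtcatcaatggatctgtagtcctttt
Cnp held 1 such string, at position -167, and Mog held none in its window. In the full 300-base windows, which run 50 bases past the start, Cnp had 17 CpG dinucleotides and a GC content of 59.7%, and Mog had 3 and 48.3%. Windows were found for 11155 of the 13924 tested genes. ACAAAG was in 13.4% of those, in 15.9% of the 761 found for genes at least 2-fold higher in the bound RNA, and in 13.1% of the 2235 found for genes at least 2-fold lower. ACAATG was in 7.63%, 10.8% and 6.85% of the same windows. A ratio of observed to expected CpG under 0.6 was seen in 32.0% of all windows, 33.4% of the higher group and 42.4% of the lower group.

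The 3 oligodendrocyte markers bore out the label in every mouse. Mog, an adhesion protein on the outer surface of myelin, read 11.24 to 11.68 (median 11.39) in the 18 bound arrays and 6.53 to 8.20 (median 7.55) in the unbound arrays, in log2 units of the authors' RMA signal. Its bound minus unbound difference was 3.94 ± 0.09 (SE, n = 18), or 15.4-fold, with an adjusted p of 4e-19. Myrf, the transcription factor that switches on myelin genes, read 10.32 to 11.40 (median 10.73) in bound and 4.85 to 7.01 (median 5.87) in unbound arrays. Its difference of 4.76 ± 0.09 was the largest rise of the genes named here. Fa2h, the enzyme that hydroxylates the fatty acids of myelin galactolipids, read 12.58 to 13.01 (median 12.81) in bound and 8.12 to 9.36 (median 8.98) in unbound arrays, a difference of 3.87 ± 0.06. For all 3 the fractions did not overlap.

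Cnp itself, the myelin phosphodiesterase whose promoter drives the tag, read 14.04 to 14.20 in bound and 12.70 to 13.03 in unbound arrays. The difference was 1.24 ± 0.02. The 2 dimmer probe sets of Cnp gave 2.01 and 2.81. Rpl10a, the gene of the ribosomal protein that carries the tag, read 11.06 to 11.85 in bound and 11.73 to 12.19 in unbound arrays, with a difference of -0.52 ± 0.04. The fractions overlapped, and the sign was the same in all 18 mice.

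**Figure D1:**
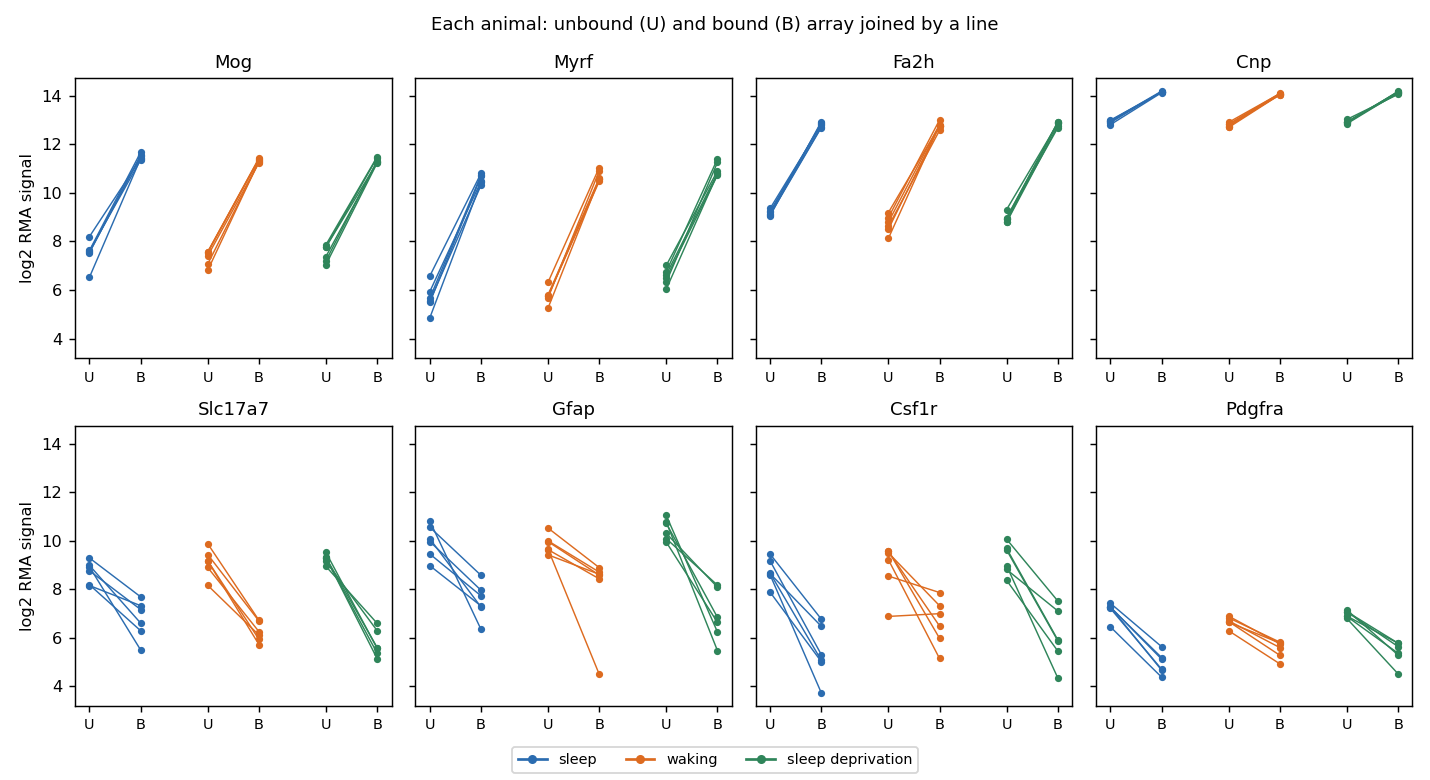
Log2 RMA signal (y axis) of 8 genes in the unbound (U) and bound (B) array of each of 18 mice, joined by a line and coloured by state, 6 mice each. Mog, Myrf, Fa2h and Cnp were higher in the bound array of every mouse, while Slc17a7, Gfap and Pdgfra were lower in every mouse and Csf1r in 17 of 18.

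Most of the measured transcriptome differed between the fractions. At an adjusted p below 0.05, 3555 genes (25.5% of those tested) were higher in bound RNA and 8087 (58.1%) were lower, so that 83.6% were called in either direction. The median difference over all genes was -0.35, and the medians of single mice ran from -0.42 to -0.28. The split depended on the scale. After quantile normalization over all arrays the median was 0.08 with 6153 genes higher and 5327 lower, and after centring each array on its median it was 0.01 with 5635 and 5558. Differences below are given on the deposited scale, and some lists also relative to the median gene. The other list medians are not set against the -0.35 of the median gene.

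A test against a threshold of 2-fold called 939 genes (6.74%) higher and 2912 (20.9%) lower. A gene dim in 1 fraction could enter only by being bright in the other, as 720 did through bound and 573 through unbound RNA alone. Among the 12631 genes that passed in both fractions, 859 were higher and 2467 lower by at least 2-fold. All 939 and all 2912 kept their direction and were still called after quantile normalization and after centring, although the lower genes past 2-fold numbered 1774 and 1886 then. The median gene moved only from -0.35 to 0.08 and 0.01. Genes chosen past 2-fold could hardly turn with that, so no support is read from the kept directions. The bound and unbound arrays did not overlap at all for 3660 genes (26.3%), 1115 of them higher and 2545 lower. In 6073 genes the difference had the same sign in all 18 mice. Beyond 3 log2 units there were 130 genes higher and 89 lower. A second probe set, where a gene had one, pointed the same way for 492 of 577 of the 2-fold higher genes and 1651 of 1681 of the 2-fold lower genes, against 82.7% of all 8141 tested genes with a second probe set.

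**Figure D2:**
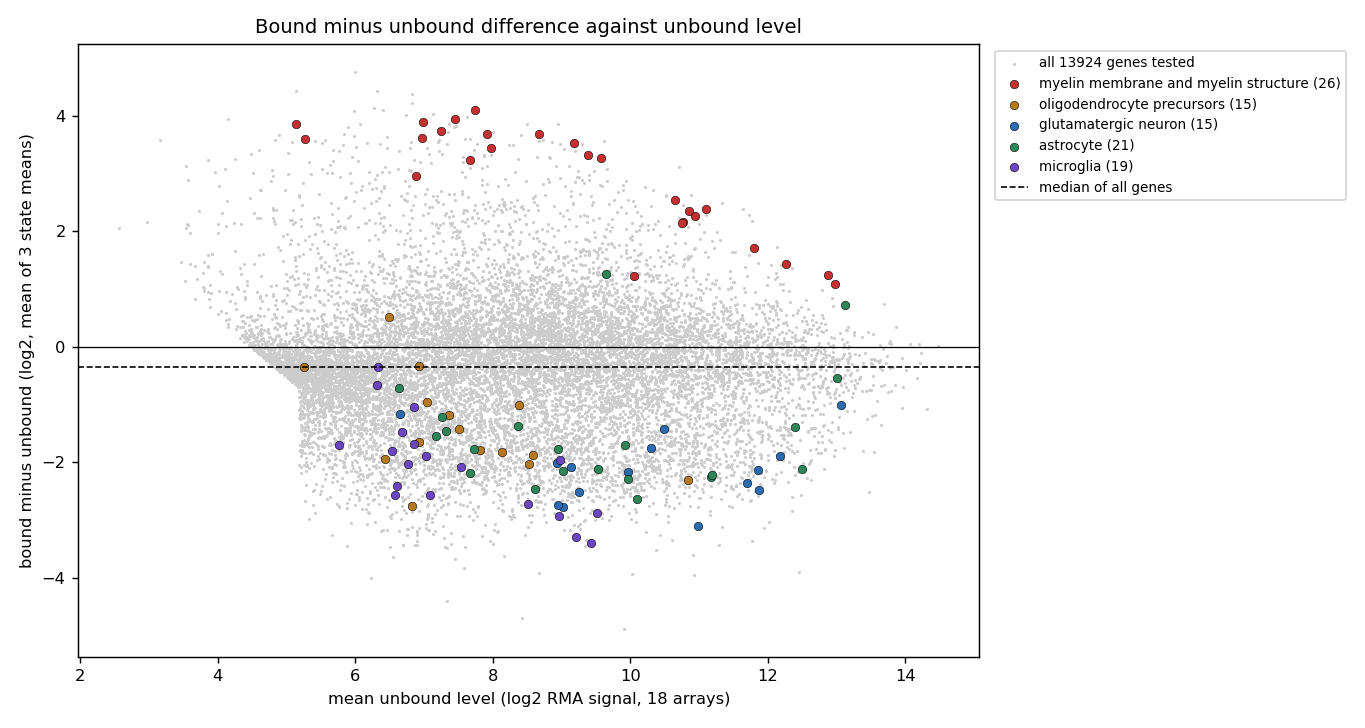
Bound minus unbound difference (y axis, log2) against the mean unbound level (x axis, log2 RMA signal) for 13924 tested genes, with 5 gene lists coloured. The 26 myelin genes all lie at 1.09 or higher on the deposited scale; the slanted lower left edge is made by the filter, which keeps a gene if either fraction passes.

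Of the 12 largest rises, leaving out Gm, LOC and Rik symbols, only Evi2a was among the myelin structural genes listed below. After Myrf came Casq1, calsequestrin, a calcium-storing protein best known from the sarcoplasmic reticulum of muscle. It read 8.71 to 10.36 (median 9.57) in bound and 3.66 to 6.64 (median 5.08) in unbound arrays, a difference of 4.44 ± 0.13. Its unbound mean of 5.14 was under the filter of 5.18, so it entered the test through bound RNA alone. Tmem125, a small membrane protein, followed at 4.42 ± 0.10, and its second probe set gave 3.94. Pdlim2, a PDZ and LIM domain adaptor, was higher by 4.38 ± 0.06, with the fractions at 10.71 to 11.56 and 6.31 to 7.11. Sgk2, a serum- and glucocorticoid-regulated kinase, was higher by 4.22 ± 0.08. Serpinb1a, an inhibitor of neutrophil proteases, was higher by 4.13 ± 0.10.

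Further large rises lay between 3.98 and 4.10. Among them were Nfe2l3 (4.10 ± 0.17), a CNC-type transcription factor, Evi2a (4.10 ± 0.09), a membrane protein encoded within an intron of Nf1, and Adamtsl4 (4.08 ± 0.22), a secreted matrix protein. Prr5l (4.01 ± 0.10), a partner of the mTOR complex that phosphorylates Akt, and Galnt6 (3.98 ± 0.08), which starts O-linked glycans, were others. Evi2a and Nfe2l3 each had a dimmer probe set with the opposite sign, at -0.91 and -0.25. In each of these genes the fractions did not overlap. That all 18 mice moved the same way was part of the rule that chose them.

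Several of the largest falls were noncoding transcripts. Mir124a-1hg, the host transcript of a neuronal microRNA, read 3.98 to 6.40 (median 4.82) in bound and 9.38 to 10.31 (median 9.93) in unbound arrays, a difference of -4.89 ± 0.16. The long noncoding RNAs Miat, Meg3 and Snhg11 were also among the 12, with Miat at -3.96 ± 0.14, Meg3, a maternally expressed imprinted RNA, at -3.90 ± 0.11, and Snhg11 at -3.61 ± 0.14. Hbb-b2, a beta globin, was at -3.94 ± 0.10. The other members, several of them at background in bound RNA, were Sh3rf2 (-4.40 ± 0.13), Gdap10 (-4.01 ± 0.17), Ifit1bl1 (-3.92 ± 0.30), the Hedgehog transducer Smo (-3.67 ± 0.23), Trp53i11 (-3.62 ± 0.10), the interferon-induced Ifitm2 (-3.48 ± 0.18) and the growth factor Fgf5 (-3.47 ± 0.19). For Smo the other probe sets gave -1.15 and -0.46, and for Fgf5 -0.19. The second probe set gave -0.74 for Hbb-b2, -1.16 for Miat and -1.70 for Snhg11.

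Several of these falls ended at background levels. Genes not expected in brain, 58 on the array, had a median of 4.30 in bound and 4.94 in unbound arrays. The bound medians of 6 of the 12 named falls lay below that level, at 2.24 for Gdap10, 2.97 for Sh3rf2, 3.48 for Ifitm2, 3.97 for Smo, 4.13 for Fgf5 and 4.28 for Trp53i11. The sizes given for these 6 therefore rest on signal that cannot be told from background, and their order among the falls is not read. In all, 377 of the 2912 genes lower by at least 2-fold were at or under the background median in bound RNA, and 59 of the 939 higher ones were at or under it in unbound RNA. Of the 26 background genes bright enough to be tested, 3 were called higher and 18 lower, with a median of -0.33.

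Myelin structural genes were higher as a block. Of 28 listed, 26 were on the array and tested, and all 26 were higher by at least 2-fold, with separate fractions in each. Their median difference was 3.25, which is 3.60 above the median gene, and the medians of single mice ran from 2.73 to 3.56. All but Gjb1, with an unbound mean of 5.13 under the filter of 5.18, passed the filter in both fractions. Evi2a and Mog led, followed by Cd82, a tetraspanin (3.89 ± 0.10, with a dimmer probe set at -0.10), and Gjb1, the connexin 32 gap junction protein (3.86 ± 0.13). Mag, the adhesion protein of the innermost myelin layer, read 12.53 to 13.05 in bound and 9.00 to 10.08 in unbound arrays, a difference of 3.26 ± 0.05.

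Mbp, the basic protein that compacts myelin, showed the smallest difference of the 26. It read 13.90 to 14.23 (median 14.09) in bound and 12.68 to 13.22 (median 13.01) in unbound arrays, a difference of 1.09 ± 0.03 or 2.13-fold. Its other 7 probe sets ranged from -1.95 to 1.76. The 11 genes with an unbound level above 10 differed by 1.09 to 2.54, and the other 15 by 2.96 to 4.10. The unbound level is itself a term of the difference, so no relation is read from this split.

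Other genes of mature oligodendrocytes behaved likewise. Of 47 listed, 45 were tested, 45 were higher and 42 were higher by at least 2-fold, with a median of 2.99, or 3.35 above the median gene. Of the 43 that passed the filter in both fractions, 43 were higher, 40 by at least 2-fold. The 4 largest were Tmem125, Pdlim2, Sgk2 and Serpinb1a, already described. Aspa, which splits N-acetylaspartate to release acetate for lipid synthesis, read 11.91 to 12.53 in bound and 8.23 to 9.22 in unbound arrays, a difference of 3.55 ± 0.05. S1pr5, a sphingosine-1-phosphate receptor of oligodendrocytes, was higher by 3.07 ± 0.09.

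Transcription factors of the lineage split into a group that was higher and a group that was lower. Of 25 listed, 23 were tested, 13 were higher, 9 were lower, and 11 and 8 of these passed the 2-fold test. After Myrf the largest rises were Sox10 (3.55 ± 0.11), which read 12.13 to 12.73 in bound and 7.76 to 9.74 in unbound arrays, Nkx6-2 (3.29 ± 0.05) and Olig2 (3.13 ± 0.09). The lower members included factors known from progenitors and from other neural cells. Sox11, a factor of immature neurons, read 5.50 to 8.90 in bound and 9.79 to 11.10 in unbound arrays, a difference of -3.03 ± 0.17. The inhibitors of differentiation Id2 (-2.50 ± 0.10) and Id4 (-1.36 ± 0.04), the Notch target Hes5 (-1.77 ± 0.12), and Sox5 (-2.31 ± 0.24), Sox6 (-1.75 ± 0.16), Sox2 (-1.56 ± 0.10) and Sox4 (-0.93 ± 0.12) were lower too. Tcf7l2, a Wnt effector that peaks in newly formed oligodendrocytes and is also made by thalamic neurons, was lower by -1.13 ± 0.06 with the same sign in all 4 of its probe sets.

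Precursor genes were lower, unlike mature ones. Of 18 listed, 15 were tested, 14 were lower, 9 by at least 2-fold, and the median was -1.64, or -1.29 relative to the median gene. Of the 14 that passed the filter in both fractions, 13 were lower, 8 by at least 2-fold, with a median of -1.53. Pdgfra, the growth factor receptor that defines precursors, was chosen for naming after its value was seen: it read 4.38 to 5.82 (median 5.33) in bound and 6.29 to 7.42 (median 6.89) in unbound arrays, and the fractions did not overlap. The largest falls were Tnr, tenascin-R (-2.76 ± 0.17), Kcnip3 (-2.31 ± 0.07), Ptprz1, a receptor phosphatase (-2.03 ± 0.23), and Rlbp1 (-1.94 ± 0.14). Tnr was the 1 member that entered through unbound RNA alone, with a bound mean of 4.06 under the filter of 4.47. Cspg4, the NG2 proteoglycan of precursors and pericytes, was the exception at 0.52 ± 0.12, higher in 16 of 18 mice with overlapping fractions. Genes of the newly formed stage had no common direction: of 12 tested, 5 were higher and 5 lower, with a median of -0.11 that turned to 0.25 after quantile normalization. Of the 10 that passed the filter in both fractions, 4 were higher and 4 lower. Enpp6, a choline phosphodiesterase, was higher by 2.52 ± 0.13 and the adhesion protein Nfasc by 1.80 ± 0.07. Bmp4 was lower by -2.06 ± 0.24 and Epha4 by -1.26 ± 0.09. Bmp4 entered through unbound RNA alone, with a bound mean of 4.20 under the filter of 4.47. The dimmer probe sets of Nfasc gave -1.18 and 1.31.

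**Figure D3:**
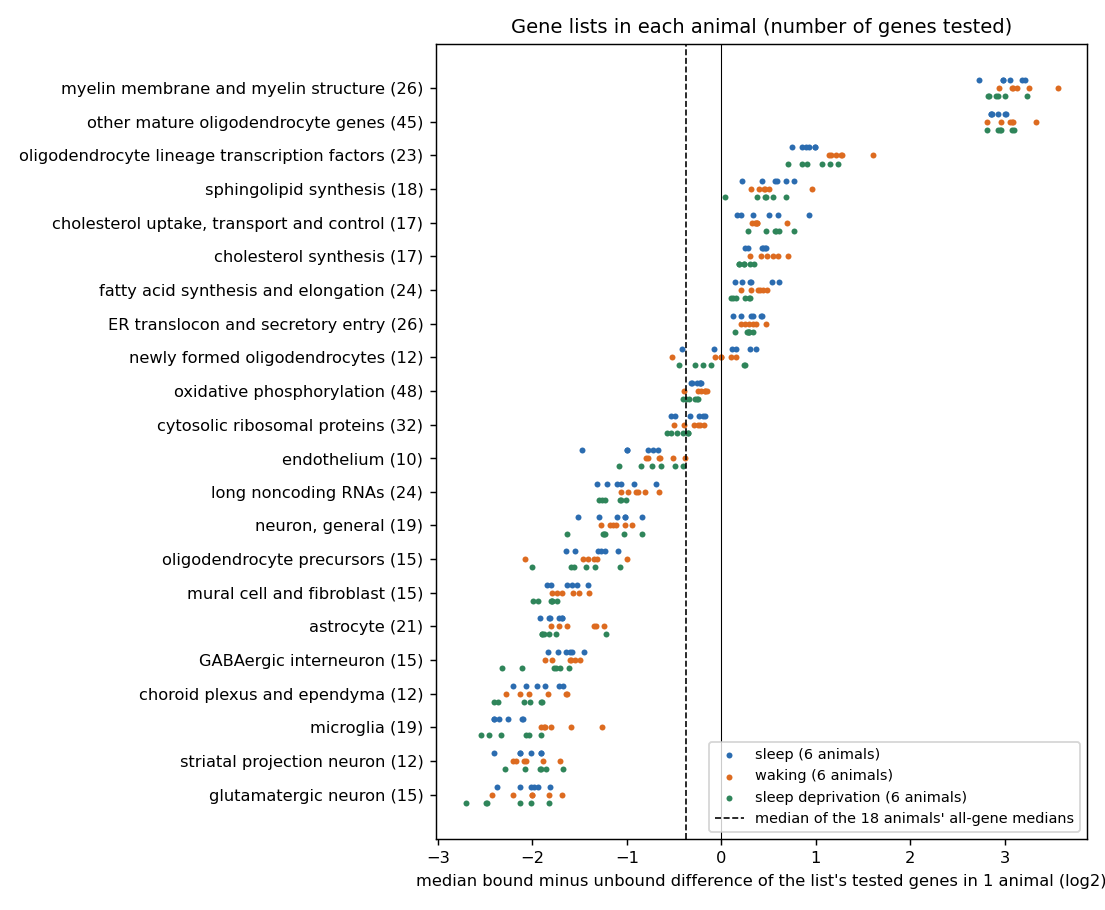
Median bound minus unbound difference of 22 gene lists (y axis) in each of 18 mice (x axis, log2), coloured by state, with the median of all genes dashed. Both mature oligodendrocyte lists lie above 2.7 in every mouse, and the precursor, glutamatergic neuron and microglia lists lie below zero in every mouse.

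Of 18 sphingolipid synthesis genes tested, 10 were higher and 8 lower, with a median of 0.57 that turned to -0.02 when probe sets were averaged. The 4 largest rises were Fa2h, the very-long-chain ceramide synthase Cers2 (3.59 ± 0.10), the galactosyltransferase Ugt8a, which makes galactosylceramide (2.86 ± 0.09), and the sulfotransferase Gal3st1, which makes sulfatide (2.04 ± 0.09). The lower genes included the glucosylceramide synthase Ugcg at -1.73 ± 0.09, the lactosylceramide synthase B4galt6 at -2.40 ± 0.08 and the ganglioside sialyltransferase St8sia1 at -1.94 ± 0.11. Ugt8a read 11.82 to 12.37 in bound and 7.59 to 9.66 in unbound arrays, while Ugcg read 7.76 to 8.83 and 9.10 to 10.55, so neither gene's fractions overlapped. Of 14 sphingolipid breakdown genes tested, 8 were higher and 3 lower, 1 past 2-fold, with a median of 0.32. The neutral ceramidase Asah2 was higher by 1.51 ± 0.16 and the galactosylceramidase Galc, which degrades myelin galactolipid, by 1.02 ± 0.13 in 17 of 18 mice.

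Fatty acid synthesis and elongation gave 15 higher and 9 lower of 24 tested, with a median of 0.31. The desaturase Scd1 was higher by 2.21 ± 0.07. The elongases divided by member. Elovl1, which makes very-long-chain saturated chains, was higher by 3.21 ± 0.13, Elovl7 by 2.60 ± 0.14, Elovl5 by 1.79 ± 0.07 and Elovl6 by 0.62 ± 0.10. Elovl4 was lower by -1.34 ± 0.07 and Elovl2, which extends polyunsaturated chains, by -2.43 ± 0.14. Elovl2 entered the test through unbound RNA alone, with a bound mean of 3.92 under the filter of 4.47. The polyunsaturated fatty acid desaturase Fads2 was lower by -1.65 ± 0.09. The ceramide synthases divided too, with Cers2 at 3.59, Cers5 at 0.62 ± 0.07, Cers4 at -1.55 ± 0.12 and Cers6 at -2.21 ± 0.17. For Cers5 the sign turned when probe sets were averaged, to -0.23.

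Cholesterol synthesis differed by less. Of 17 genes tested, 13 were higher, 3 were lower and 2 passed the 2-fold test, with a median of 0.34, or 0.69 above the median gene. The largest were the late enzymes Ebp (1.69 ± 0.15), Dhcr7, which makes the last step to cholesterol (1.56 ± 0.08), Lss, the lanosterol synthase (1.12 ± 0.08), and Sc5d (1.06 ± 0.11). Of 17 genes for cholesterol uptake, transport and control, 10 were higher and 6 lower, 7 and 2 past 2-fold. The lysosomal exporter Npc1 was higher by 2.48 ± 0.11, the lipid regulator Srebf1 by 2.32 ± 0.11 and the transporter Abca2 by 2.32 ± 0.07. Cyp46a1, the neuronal enzyme that hydroxylates cholesterol for export from the brain, was lower by -2.14 ± 0.11, and the lipoprotein receptor Lrp1 by -1.94 ± 0.10.

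The members of 12 gene families, chosen with their values known, are given next, and with 83.6% of all genes called no count over families is read as a result. Among the MAL family, which are raft proteolipids, Pllp (3.69 ± 0.06), Cmtm5 (3.49 ± 0.08) and Mal (1.71 ± 0.03) were higher while Mal2 was lower by -2.63 ± 0.12. Of the 8 connexins tested, Gjb1 and Gjc3 (3.68 ± 0.07) were higher. Gja1 (-2.25 ± 0.11) and Gjb6 (-2.19 ± 0.10), the gap junction proteins of astrocytes, Gjb2 (-2.12 ± 0.12), Gjc1 (-2.08 ± 0.11), the neuronal Gjd2 (-1.80 ± 0.09) and the arterial Gja5 (-0.80 ± 0.06) were lower. After quantile normalization Gja5 was at -0.08 and no longer called (adjusted p 0.21). Gjc3 had a dimmer probe set at -0.80. Contactins, which organise the contacts around nodes, gave Cntn2 at 2.82 ± 0.09 against Cntn1 at -0.76 ± 0.07, Cntn3 at -1.20 ± 0.11, Cntn6 at -2.02 ± 0.16 and Cntn4 at -2.15 ± 0.11. The secreted LGI proteins gave Lgi3 at 2.50 ± 0.07 against Lgi4 at -0.84 ± 0.11, Lgi1 at -2.23 ± 0.08 and Lgi2 at -2.31 ± 0.10. After quantile normalization Lgi4 was at -0.19 and no longer called (adjusted p 0.092).

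Carbonic anhydrases had 3 members higher and 7 lower of 11 tested. Car14 (2.38 ± 0.08), the cytosolic Car2 (2.18 ± 0.05) and Car13 (1.77 ± 0.23) were higher. Car4 (-3.20 ± 0.36), Car12 (-2.78 ± 0.20), Car10 (-2.69 ± 0.13), Car8 (-2.44 ± 0.19), Car5b (-1.74 ± 0.18), Car7 (-1.38 ± 0.12) and Car11 (-1.33 ± 0.13) were lower, and Car3 was at -0.04 ± 0.29 with an adjusted p of 0.89. Car5b entered the test through unbound RNA alone, with a bound mean of 4.30 under the filter of 4.47. Car2, long used as an oligodendrocyte marker, read 13.80 to 14.06 in bound and 10.93 to 12.18 in unbound arrays. Septins, filament proteins that scaffold membranes, divided evenly over 10 members. Septin2 (2.28 ± 0.07), Septin4 (2.28 ± 0.04), Septin1 (1.60 ± 0.10), Septin10 (1.47 ± 0.11) and Septin7 (0.60 ± 0.04) were higher. Septin3 (-2.31 ± 0.07), Septin11 (-1.96 ± 0.07), Septin6 (-1.49 ± 0.08) and Septin9 (-1.47 ± 0.15) were lower. Septin8 was at -1.47 ± 0.04 by its brightest probe set, but its other probe sets gave 2.12 and 3.33, and the mean over probe sets was 1.32, so its direction rests on the probe set.

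All 3 SGK kinases were higher, Sgk2 most, then Sgk3 (1.65 ± 0.08) and Sgk1 (1.55 ± 0.07). Of the 4 sphingosine-1-phosphate receptors, S1pr5 was higher, S1pr1 (-1.86 ± 0.20) and S1pr3 (-2.59 ± 0.34) were lower, and S1pr2 was at -0.17 ± 0.11 with an adjusted p of 0.15. The differentiation-linked Ndrg1 was higher by 2.63 ± 0.06, while Ndrg3 (-0.89 ± 0.04), Ndrg4 (-0.63 ± 0.05) and Ndrg2 (-0.54 ± 0.02) were lower. Among monocarboxylate transporters, which carry lactate, Slc16a1 was higher by 1.95 ± 0.09 and Slc16a3 by 1.17 ± 0.19, and the neuronal Slc16a7 (-0.92 ± 0.12) and Slc16a6 (-0.88 ± 0.14) were lower.

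**Figure D4:**
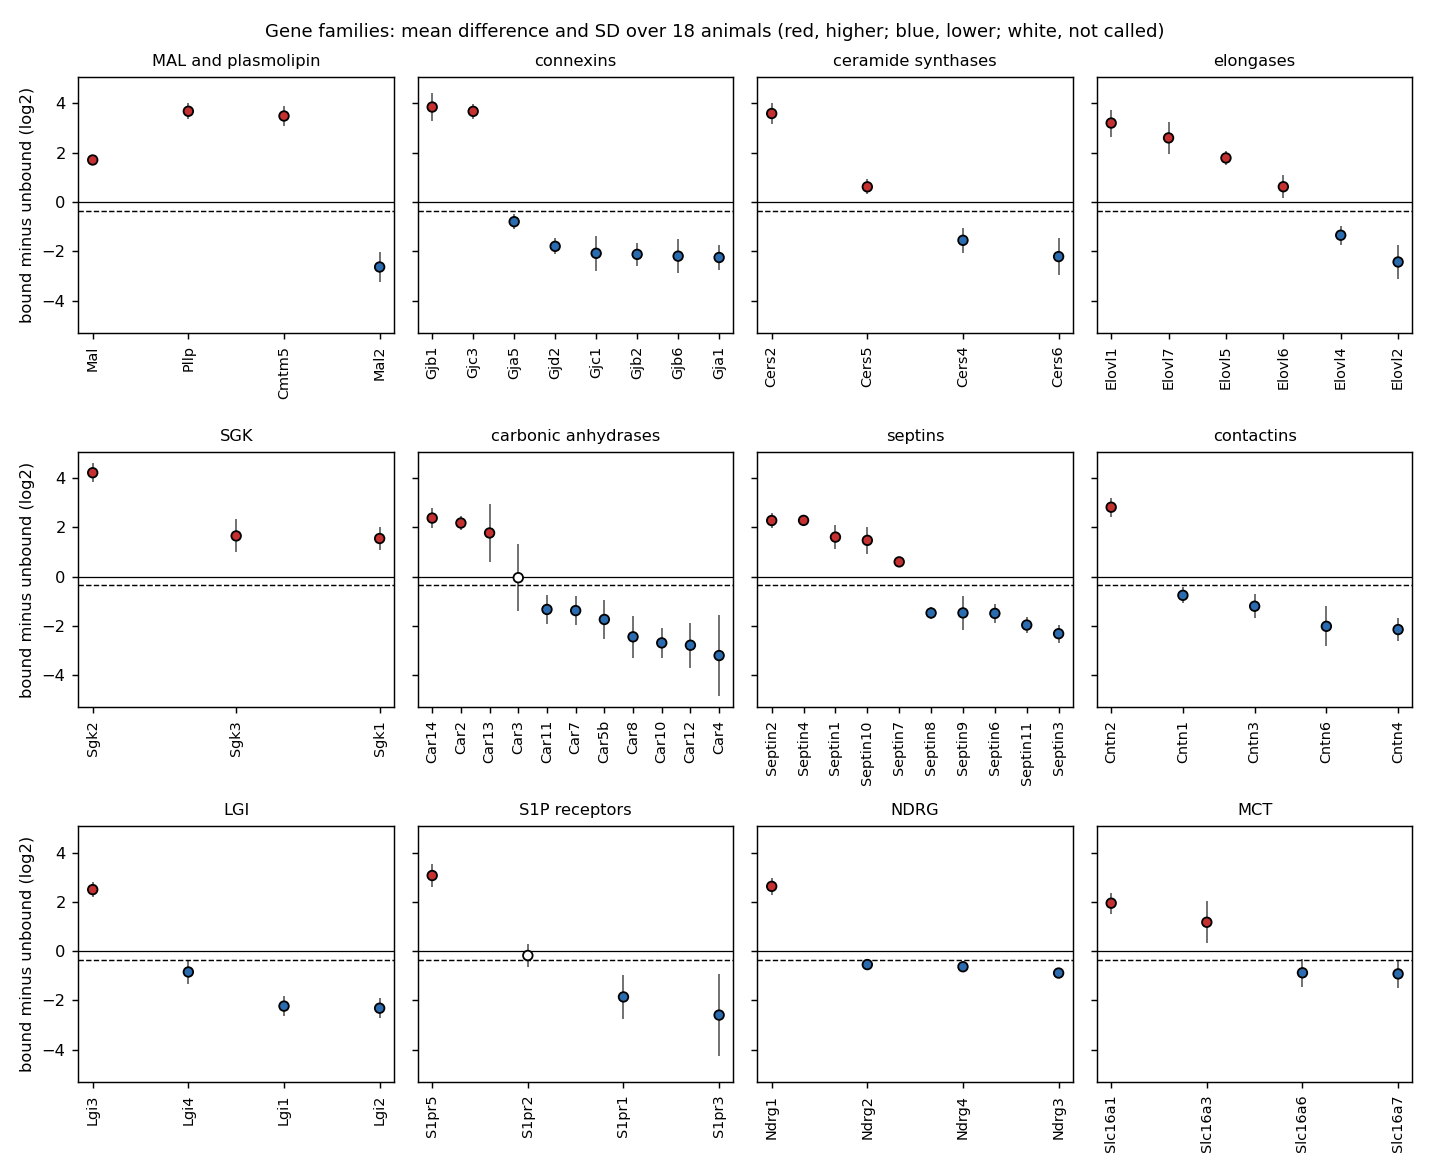
Mean bound minus unbound difference (y axis, log2) with its SD over 18 mice for the tested members of 12 gene families; red points were called higher, blue lower and white not called, and the dashed line is the median of all genes. Pllp, Cmtm5 and Mal lie above zero and Mal2 below it, and all 3 SGK genes lie above it.

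Of 22 energy supply genes tested, 17 were lower and 5 higher, against 58.1% and 25.5% of all genes. By at least 2-fold, 4 were lower and 3 higher, against 20.9% and 6.74% of all genes. Their median was -0.71, or -0.36 relative to the median gene. The 5 that were higher were Aspa, Slc16a1, Slc16a3, the acetyl-CoA synthetase Acss2 (0.59 ± 0.12) and the glucose transporter Slc2a1 (1.57 ± 0.05). The neuronal glucose transporter Slc2a3 was lower by -1.97 ± 0.12, and Nat8l, which makes N-acetylaspartate in neurons, by -1.85 ± 0.04. Nat8l read 9.73 to 10.21 in bound and 11.55 to 11.97 in unbound arrays, opposite to Aspa, which uses its product. Iron handling genes gave 3 higher and 7 lower of 12 tested, close to the 25.5% and 58.1% of all genes, with a median of -0.28 that turned to 0.06 after quantile normalization.

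Of 24 tubulin and microtubule genes tested, 9 were higher and 14 lower, against 25.5% and 58.1% of all genes, and their median was -0.02 relative to that of all genes. Tppp3, a tubulin polymerization protein, was higher by 3.28 ± 0.06 and Map7 by 2.90 ± 0.05, the axonal and oligodendrocyte protein tau, Mapt, by 1.04 ± 0.05, and the beta tubulin Tubb4a by 0.73 ± 0.02. The dendritic Map2 was lower by -2.34 ± 0.06 and Dcx, a protein of migrating neurons, by -2.60 ± 0.11. Of 21 paranodal and axon-glia adhesion genes tested, 10 were higher and 11 lower. Mag, Cntn2 and Lgi3 led the first group, and the axonal Nrcam was the lowest at -2.30 ± 0.11.

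Markers of other cell types were lower almost throughout. Of 19 general neuronal genes tested, 18 were lower, 9 by at least 2-fold, with a median of -1.14. Map2, the nuclear protein Rbfox3 (-2.18 ± 0.05), Stmn2 (-2.06 ± 0.05) and Elavl4 (-1.96 ± 0.07) led. Elavl3, an RNA-binding protein of neurons, was the exception at 0.63 ± 0.04, with separate fractions (12.57 to 12.89 against 11.64 to 12.46) and other probe sets at 0.99 and 1.12. All 15 glutamatergic genes were lower, 13 by at least 2-fold, with a median of -2.13. Neurod2 was at -3.11 ± 0.07, Slc17a7, the cortical vesicular glutamate transporter, at -2.78 ± 0.16, Neurod6 at -2.75 ± 0.12 and Rorb at -2.51 ± 0.12.

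All 15 genes of GABAergic interneurons were lower by at least 2-fold, with a median of -1.84 and Dlx2 (-2.61 ± 0.15), Cck (-2.30 ± 0.07), Vip (-2.13 ± 0.22) and Dlx5 (-2.09 ± 0.14) at the low end. All 12 striatal projection neuron genes tested were lower, 10 past 2-fold, with a median of -2.05, and 11 of them passed the filter in both fractions with 9 past 2-fold. Gpr6 was at -3.16 ± 0.13, Rasd2 at -2.58 ± 0.12, Ppp1r1b, which encodes DARPP-32, at -2.37 ± 0.07 and Drd2 at -2.34 ± 0.12. Of 15 neuroendocrine peptide genes, 14 were lower with a median of -1.76. Cartpt (-2.73 ± 0.12), Crh (-2.68 ± 0.19), Pmch (-2.49 ± 0.12) and Vgf (-2.22 ± 0.09) were the lowest.

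Glial and vascular markers followed. Of 21 astrocyte genes, 19 were lower, 16 by at least 2-fold, with a median of -1.77. Gfap read 4.49 to 8.89 (median 7.84) in bound and 8.97 to 11.04 (median 10.04) in unbound arrays, a difference of -2.64 ± 0.29, and Ntsr2 (-2.47 ± 0.10), Slc4a4 (-2.29 ± 0.21) and Gja1 were next. S100b (1.25 ± 0.06) and Glul, glutamine synthetase (0.72 ± 0.02), were higher, and both genes are also known from oligodendrocytes. All 19 microglial genes tested were lower, but 3 entered through unbound RNA alone. Of the 16 that passed in both fractions, 16 were lower, 13 past 2-fold, with a median of -2.0. Tyrobp was at -3.41 ± 0.12, C1qb at -3.30 ± 0.23, Csf1r at -2.94 ± 0.27 in 17 of 18 mice and Laptm5 at -2.88 ± 0.25.

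Of 10 endothelial genes tested, 8 were lower, and of the 7 that passed in both fractions 6 were lower, with a median of -0.74. Itm2a (-1.69 ± 0.21) and Flt1 (-1.22 ± 0.12) were lower, whereas Slc2a1 and the VEGF receptor gene Kdr were higher. Kdr read 6.85 to 8.41 (median 7.77) in bound and 4.27 to 5.77 (median 5.25) in unbound arrays, a difference of 2.59 ± 0.14 from its only probe set. It entered the test through bound RNA alone. Of 15 mural cell and fibroblast genes tested, 3 entered through unbound RNA alone, Higd1b among them with a bound mean of 3.61. Of the 12 that passed in both, 11 were lower, 8 past 2-fold, with a median of -1.60. The lowest of all 15 were Igf2 (-3.26 ± 0.14), Higd1b (-3.16 ± 0.14), Rgs5 (-2.64 ± 0.15) and Col1a2 (-2.23 ± 0.20). Of 12 choroid plexus and ependymal genes tested, 5 entered through unbound RNA alone. Of the 7 that passed in both, 5 were lower, 2 past 2-fold, with a median of -1.42. Clic6 (-2.90 ± 0.16), Otx2 (-2.72 ± 0.16) and Kl (-2.60 ± 0.18) were lowest of the 12, with bound means of 4.16, 4.34 and 4.09 under the filter of 4.47. Foxj1, the master regulator of motile cilia, went against the rest at 3.03 ± 0.15, with 8.36 to 9.88 in bound and 4.60 to 7.43 in unbound arrays and 1 probe set. The globins opposed each other. Hbb-b2 was lower by -3.94, but only by -0.74 with its second probe set, and the heme enzyme Alas2 was lower too (-1.97 ± 0.16). The alpha globin Hba-a2 was higher by 1.09 ± 0.03, with 12.05 to 12.55 in bound and 10.97 to 11.48 in unbound arrays.

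On the deposited scale, housekeeping machinery stayed near the median gene. Of 32 cytosolic ribosomal protein genes tested, 26 were lower and 2 higher, against 58.1% and 25.5% of all genes. Their median was -0.33, which is 0.02 above the median gene, and turned to 0.03 after centring. After quantile normalization it was -0.26, where the median gene was at 0.08. Rps19 was lowest at -1.41 ± 0.07, Rpl14 was at -0.94 ± 0.15, and Rps6 was highest at 0.86 ± 0.10 with a dimmer probe set at -0.38. Of 48 oxidative phosphorylation genes, 44 were lower and none by 2-fold, with a median of -0.28, or 0.08 above the median gene. After quantile normalization that median was -0.24, with 39 genes lower and 4 higher. The brightest of 10 equal bins of all genes by level had a median of -0.11 on the deposited scale. Cox8a (-0.82 ± 0.05) and Cox5a (-0.70 ± 0.04) were lowest and Ndufs7 highest (0.29 ± 0.05). Translation factors gave 7 higher and 13 lower of 24, near the 25.5% and 58.1% of all genes, with a median of -0.16. The neuronal elongation factor Eef1a2 (-1.44 ± 0.11) and the initiation inhibitor Eif4ebp2 (-1.29 ± 0.09) were the 2 past 2-fold. Genes for entry into the endoplasmic reticulum were a little higher, 16 of 26, with a median of 0.27 or 0.63 above the median gene. The signal peptidase subunits opposed each other, with Sec11c at 1.12 ± 0.03 and Spcs2 at 0.78 ± 0.05 against Spcs3 at -1.12 ± 0.06, and Ssr1 of the translocon was at 0.81 ± 0.06.

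By RefSeq class, 161 of 554 tested long noncoding RNAs (29.1%) were lower by at least 2-fold and 24 (4.33%) higher, against 20.5% and 6.90% of 13209 protein-coding genes. Their median difference was -0.70 against -0.34, and after quantile normalization -0.09 against 0.08. The long noncoding RNAs had a median unbound level of 5.91 against 8.28 for coding genes, and the part that level has in this was not tested. In a list of well-known ones, 16 of 24 tested were lower and 4 higher, against 58.1% and 25.5% of all genes. Of the 21 that passed in both fractions 14 were lower and 4 higher, with a median of -0.94. Kcnq1ot1, an imprinted antisense RNA, was at -2.88 ± 0.16, and the nuclear-retained Malat1 read 12.61 to 13.63 in bound and 13.99 to 14.52 in unbound arrays, a difference of -1.08 ± 0.04. Neat1, the scaffold of paraspeckles, was at 0.86 ± 0.11 with a dimmer probe set at -0.72. Sox2ot was the exception in size: it read 10.27 to 10.78 (median 10.55) in bound and 6.71 to 7.91 (median 7.64) in unbound arrays, higher by 2.93 ± 0.09, while Sox2 inside it was lower by -1.56.

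Some host transcripts carry microRNAs, and 4 well-known ones are shown because their hosts lay on opposite sides. The hosts were picked after their values were seen. By RefSeq positions on GRCm38.p6, 500 tested genes contain a mature microRNA on the same strand (for 58 of them the strand of the gene was not given), of which 45 (9.0%) were higher by at least 2-fold and 105 (21.0%) lower, with a median of -0.34. These are near the 6.74%, 20.9% and -0.35 of all genes. Capitals mark the seed, bases 2 to 8. The positions are chr11:120014781-120014802 (minus strand) for miR-338-3p inside Aatk, chr9:112118644-112118664 (minus strand) for miR-128-3p inside Arpp21, and chr1:195037091-195037113 and chr1:195037600-195037621 (plus strand) for the pair inside A330023F24Rik.
miR-338-3p: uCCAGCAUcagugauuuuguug
miR-128-3p: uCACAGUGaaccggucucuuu
miR-29b-3p: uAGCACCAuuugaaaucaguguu
miR-29c-3p: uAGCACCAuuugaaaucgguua
Aatk, a kinase gene whose intron holds the oligodendrocyte microRNA miR-338, read 8.41 to 9.56 in bound and 7.02 to 7.89 in unbound arrays, higher by 1.43 ± 0.08. Arpp21, a neuronal phosphoprotein gene and host of miR-128, read 9.14 to 10.05 in bound and 12.05 to 12.57 in unbound arrays, lower by -2.84 ± 0.06. A330023F24Rik, which holds both miR-29b and miR-29c with 1 shared seed, was lower by -2.36 ± 0.15 with overlapping fractions. These values are of the host transcripts, and the microRNAs themselves were not measured.

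The difference between fractions varied with behavioural state for 1505 genes (10.8%), by a moderated F test over the 3 states. Among the 3851 genes called at 2-fold it varied for 422, or 11.0%, close to that background. All 939 higher and 2912 lower genes kept their direction in the sleeping, the waking and the sleep-deprived mice taken alone. The same mice chose these genes past 2-fold, so the kept directions are no independent support. The count of state-varying genes fell to 866 without 3 mice (waking 3 and 5 and sleep-deprived 11) whose Y-linked transcripts were near background in both arrays, and single mice left out gave 1212 to 1366.

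The 6 genes with the clearest variation among those called at 2-fold changed in size and not in direction of their state means. Genes chosen past 2-fold on the mean of these same states could hardly turn, so no support is read from the kept direction. Bcl2l1, an antiapoptotic protein of the BCL2 family, differed by 0.84 ± 0.27 (SD, n = 6) in sleeping, 1.25 ± 0.22 in waking and 2.03 ± 0.19 in sleep-deprived mice, with an adjusted p of 8.4e-05. Plin4, a coat protein of lipid droplets, differed by 0.89 ± 0.43, 3.26 ± 0.62 and 2.29 ± 0.45 in the same order (adjusted p 0.00017). Fezf1, a forebrain transcription factor, was at -1.04, -1.06 and -2.33, and Dmkn at -2.0, -2.08 and -3.79, so that both were lowest in sleep-deprived mice (adjusted p 7.5e-05 each). Msrb3, a methionine sulfoxide reductase, was at -2.87, -0.87 and -2.95. AU041133 was at -3.13, -2.26 and -0.54, and was lower in 17 of 18 mice.

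**Figure D5:**
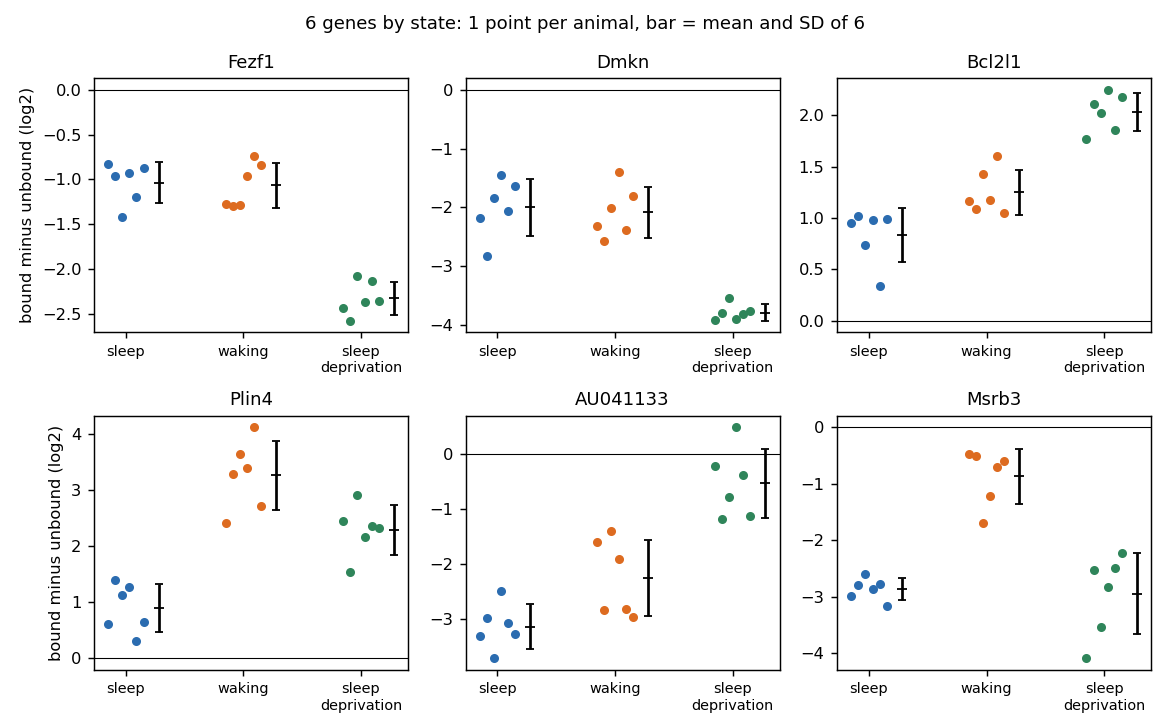
Bound minus unbound difference (y axis, log2) of 6 genes in each mouse by state, with the mean and SD of 6 mice beside the points. Bcl2l1 and Plin4 lie above zero in every mouse, Bcl2l1 highest in sleep deprivation and Plin4 highest in waking, and the other 4 lie below zero but for 1 mouse in AU041133.

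Variation with state was called for 2 of 26 myelin genes and 7 of 45 other mature genes, near the 10.8% of all genes, so the counts are not read as a result about these genes. Cd82 was at 4.04 in sleeping, 4.38 in waking and 3.24 in sleep-deprived mice (adjusted p 0.009), and Car2 at 2.00, 2.42 and 2.11 (adjusted p 0.043). The kinase Sgk3 was at 1.17 in sleeping, 1.35 in waking and 2.43 in sleep-deprived mice (adjusted p 0.0011), and Sgk1 was at 1.22, 2.00 and 1.43 (adjusted p 0.016). Pdgfra was at -2.20, -1.14 and -1.58 (adjusted p 0.0094), and Foxj1 at 3.20, 3.90 and 1.99 (adjusted p 0.0068). The test asks whether any state differs, not which, and the waking mice were killed at another clock time than the sleeping ones, so state and time of day cannot be told apart.

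Signal level bears on all of these counts. Tested genes were ranked by level and cut into 10 bins of equal size. In the dimmest bin 1.72% were higher by at least 2-fold and 23.0% lower, and 23.8% varied with state. In the brightest bin the shares were 9.83%, 10.6% and 11.6%. The share that varied with state did not move steadily, and was 6.61% in bins 5 and 6 counted from the dimmest. The median SD of the difference between mice was 0.52 in the dimmest bin, 0.62 in bin 3 and 0.20 in the brightest.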

How the data were processed

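RNA from 18 mice was measured on 36 arrays, 1 bound and 1 unbound per mouse. The authors deposited log2 values made with RMA, per the submitters' processing notes, with the version not given in the sources used here. These are array intensities, and their precision is limited by how many arrays there are. Of 45101 probe sets, 34945 had 1 gene, 932 had several and were not used, and 9160 had none. The brightest probe set stood for each gene, and a gene was tested where its mean passed the 40th percentile of either fraction (4.47 bound, 5.18 unbound on the log2 scale).

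Bound minus unbound was fitted per mouse with limma 3.58.1 in R 4.3.3, with Benjamini-Hochberg adjustment over all 13924 genes. A test against a 2-fold threshold (treat) and a moderated F test over the 3 states used the same fit, and the procedure was tested on simulated data. The labels pair arrays by state and replicate number. Deviations of same-numbered arrays correlated at -0.003 to 0.08, and 12 of 18 arrays correlated best with their own partner. Kdm5d was near background in both arrays of the same 3 mice, and this pairing was used throughout. Nothing states whether samples beyond that were processed independently. All array columns matched a sample.

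Genes were named as the 12 largest rises and falls with the same sign in all mice (leaving out Gm, LOC and Rik symbols), up to 4 members per list plus those against their list, described family members, the markers, and 6 genes by state. A gene that this rule names is not reported here. Pdgfra, Malat1, Neat1, Aatk, Arpp21, A330023F24Rik and other genes beyond these were chosen after their values were seen. The members, the 31 lists and the rules were chosen with earlier results of these data known. Alternatives were another scaling, the probe set rule, the filter, the intensity trend, the replicate block, single states and left-out mice.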

Additional observations from a re-analysis of the deposited data

Results flagged for a closer look

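The bound minus unbound difference of single mice was set against the other 5 mice of the same state in 741 groups of 6, and 44 groups (5.94%) had 1 mouse standing apart by Dixon's criterion; chance gives about 1 in 20. All values are log2 differences. In sleep mouse 1, the values standing apart were Rpl10a at -0.7727 and Galnt6 at 3.1197. In sleep mouse 3, the values standing apart were Neurod2 at -3.6204 and Crh at -5.7657. In sleep mouse 4, the values standing apart were Sox6 at 0.2787 and Gjc1 at -0.3430. In sleep mouse 5, the values standing apart were Snhg11 at -5.1502 and Gja1 at -3.7021. In sleep mouse 6, the values standing apart were Gdap10 at -4.4425, Cspg4 at -0.7641 and Rgs5 at -1.8049. In sleep deprivation mouse 7, the value standing apart was the median of the astrocyte list at -1.2229. In sleep deprivation mouse 8, the values standing apart were Tnr at -1.9789 and Elovl2 at -3.5100. In sleep deprivation mouse 9, the values standing apart were Nfe2l3 at 5.2246 and the median of the ER translocon and secretory entry list at 0.1413. In sleep deprivation mouse 10, the values standing apart were Cers6 at -1.0883, Slc4a4 at -5.2823, Higd1b at -3.7302, Cox8a at -0.2497, Septin3 at -3.4055 and Septin4 at 2.1008. In waking mouse 1, the values standing apart were B4galt6 at -3.0701, Gfap at -5.1620, Itm2a at -3.8658 and the median of the oligodendrocyte lineage transcription factors list at 1.6065. In waking mouse 2, the values standing apart were Cers6 at -3.7943, Gal3st1 at 2.9468 and the median of the newly formed oligodendrocytes list at -0.5167. In waking mouse 3, the values standing apart were Gdap10 at -1.9747, Smo at -5.7573, Scd1 at 2.9290, Fads2 at -2.8097, Ugt8a at 4.3501, Slc16a1 at 2.6338, Gjc3 at 4.5159, Car2 at 3.0496 and the median of the sphingolipid synthesis list at 0.9569. In waking mouse 4, the values standing apart were Sh3rf2 at -5.3974, Trp53i11 at -2.5144 and Gjb2 at -1.1646. In waking mouse 5, the values standing apart were Cntn2 at 3.2512 and the median of the translation factors list at -0.2846. In waking mouse 6, the value standing apart was the median of the cholesterol uptake, transport and control list at 0.6990. Waking mouse 3 is 1 of the 3 mice set apart by Y-linked transcripts, and their part in these values was not tested.

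The difference between fractions varied between the 3 states, by limma's moderated F test with Benjamini-Hochberg adjustment, for 32 of the 216 named genes, beside 10.8% of all genes tested. Fezf1, Dmkn, Bcl2l1, Plin4, AU041133 and Msrb3 were named by this same test, so the count is no result. The adjusted p-values were those of Rpl10a (0.03046), Casq1 (0.03746), Prr5l (0.01745), Meg3 (0.02296), Trp53i11 (0.000342), Fgf5 (0.01449), Cd82 (0.009044) and Pdgfra (0.009357). Further adjusted p-values were those of Elovl4 (0.04257), Dhcr7 (0.03736), Abca2 (0.03386), Rbfox3 (0.006993), Slc17a7 (0.03401), Gpr6 (0.04536), Cartpt (0.009825) and S100b (0.03313). Further adjusted p-values were those of Foxj1 (0.006813), Kcnq1ot1 (0.02382), Gjb6 (0.006778), Gjc1 (0.01488), Gja5 (0.01972), Sgk1 (0.01608), Sgk3 (0.001099) and Car2 (0.04318). Further adjusted p-values were those of Ndrg2 (0.001034), Fezf1 (7.54e-05), Dmkn (7.54e-05), Bcl2l1 (8.396e-05), Plin4 (0.0001683), AU041133 (0.0001712), Msrb3 (0.0002146) and A330023F24Rik (0.003386).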

How the results depend on the processing

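With quantile normalization 6153 genes were higher and 5327 lower, and 1774 were at least 2-fold lower. With arrays centred on their medians 5635 were higher, 1467 at least 2-fold higher and 1886 at least 2-fold lower. Without the filter on low values 3701 genes varied with state, and without the 3 mice set apart by Y-linked transcripts, an alternative added after seeing the data, 866 did. The cause was not tested. Leaving out 1 mouse at a time gave 3496 to 3529 genes higher, 7992 to 8069 lower, 925 to 938 at least 2-fold higher, 2862 to 2900 at least 2-fold lower and 1212 to 1366 varying with state. Without the replicate block that pairs the arrays of a mouse, 3537 genes were higher, 8086 lower, 927 and 2892 past 2-fold and 1642 varied with state, and none of the 216 named genes changed its call for bound against unbound.

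Among single genes, signs turned for Cers5 (-0.2272) and Septin8 (1.3244) with probe sets averaged, for Car3 with quantile normalization (0.5806), with centring (0.3216), in waking mice (0.2664) and in sleep-deprived mice (0.2396), and for S1pr2 with quantile normalization (0.5295) and centring (0.1902). List medians turned for newly formed oligodendrocytes with quantile normalization (0.2540), centring (0.2586) and in sleeping mice (0.0840), and for sphingolipid synthesis with probe sets averaged (-0.0232). They turned for iron handling with quantile normalization (0.0600) and centring (0.0848), and for genes not expressed in brain likewise (0.3542 and 0.0348). With centring they also turned for ribosomal proteins (0.0322), translation factors (0.2036) and oxidative phosphorylation (0.0881).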
